A study of Mus musculus with 12 samples.

Results

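Axon guidance ligands and receptors were followed in mouse spinal cord as a set of 58 genes, read from 99 probe sets of 1 Affymetrix array design. Genes were taken from a list of names of the semaphorin 3 to 7, plexin, neuropilin, Eph, ephrin, netrin, Slit, Robo, Unc5 and Dcc kind. For each listed gene all probe sets carrying its symbol alone entered, and the gene was represented by its brightest probe set by mean log2(signal + 16) over all arrays. The 58 genes stand among 12393 genes that could be named, on an array with 22626 probe sets after the control probe sets were removed. One of them, Unc50, shares only the start of its name with the netrin receptors and is not a guidance gene, so 57 guidance genes in 10 families remain. Another 14 gene symbols that match these names had no probe set carrying the symbol alone. Those genes, Robo2, Plxnb1, Ephb2 and Unc5a among them, were not analysed here.

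The study set 3 groups of 4 cords against each other at 13 days of age. Cords labelled SMA ceftriaxone came from mice with severe spinal muscular atrophy, a motor neuron disease caused by lack of the SMN protein, that received 200 mg/kg of the beta-lactam antibiotic ceftriaxone daily by intraperitoneal injection from day 5. Cords labelled SMA vehicle came from SMA mice given the saline vehicle, which the labels also call untreated. Cords labelled wildtype came from mice given vehicle. All 3 groups carry the human SMN2 transgene and the SmnΔ7 transgene on both alleles (SMN2+/+;SmnΔ7+/+), on the FVB background of line 4299. The SMA groups have no intact mouse Smn allele, whereas the animals called wildtype are mSmn+/− and so hold 1 disrupted copy. Cords were taken after perfusion with fixative. The labels speak both of whole cords and of the lumbar L1–L5 region, and they do not state sex.

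Guidance genes steer growing axons. Secreted semaphorins bind neuropilins, which signal through plexins, while most membrane semaphorins bind plexins directly and many of these contacts repel. Netrin made at the ventral midline attracts axons that carry Dcc and repels those that carry Unc5 receptors, Slits repel through Robo receptors, and ephrins on one cell meet Eph receptor kinases on another. In the spinal cord these systems guide commissural, corticospinal and motor axons, and several members are later used by oligodendrocytes, blood vessels and synapses.

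Values are MAS5 signals, a linear brightness scaled by the authors to 1 trimmed mean of 699.9 on all 12 arrays. Smn1 signal was 3.3 to 15.8 in SMA ceftriaxone cords and 3.6 to 5.7 in SMA vehicle cords, against 263.4 to 414.3 in wildtype cords, so the low signal and the SMA label went together on every array. Wildtype array 2 stood apart: its log2 values had a correlation of 0.945 to 0.948 with those of the remaining wildtype cords, which reached 0.986 and 0.988 among themselves, and it alone carried a strong signal for thymus genes such as Rag1 (7862.5) and Cd3d (5575.8). Xist, the transcript of the inactive X chromosome in females, was above 1000 in all 4 SMA ceftriaxone arrays, in 2 of 4 SMA vehicle arrays and in 1 of 4 wildtype arrays. Of the markers on the array, 11 of 12 for mature neurons, 10 of 11 for immature neurons, 12 of 12 for astrocytes and 12 of 12 for myelin and oligodendrocytes had a mean log2 value above the 40th percentile of all probe sets. No source says whether the 4 cords of a group came from separate litters, so p-values measure the spread between these arrays.

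Of the 58 genes, 50 had an entry in the RefSeq promoter table for build GRCm38.p6, which gives 250 bases before to 50 bases after a gene's annotated start. The windows of the 2 largest rises and the 3 largest falls in SMA vehicle cords that had an entry are shown because these genes carry the contrast described next. Capitals mark, on either strand, the GC box GGGCGG, the E-box CAGCTG, the SOX-type words ACAAAG and AACAAT, and the MYRF-type words CTGGCAC and CTGGTAC. Each sequence runs 5′ to 3′ along the gene's own strand.
Plxnc1, chr10:94944796-94945095, minus strand: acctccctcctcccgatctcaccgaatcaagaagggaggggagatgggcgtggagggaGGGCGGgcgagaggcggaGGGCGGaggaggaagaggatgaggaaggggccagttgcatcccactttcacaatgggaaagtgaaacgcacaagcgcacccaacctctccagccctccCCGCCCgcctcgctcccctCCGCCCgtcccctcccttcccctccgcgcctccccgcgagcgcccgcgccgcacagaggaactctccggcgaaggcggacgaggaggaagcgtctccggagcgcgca
Sema4g, chr19:44989094-44989393, plus strand: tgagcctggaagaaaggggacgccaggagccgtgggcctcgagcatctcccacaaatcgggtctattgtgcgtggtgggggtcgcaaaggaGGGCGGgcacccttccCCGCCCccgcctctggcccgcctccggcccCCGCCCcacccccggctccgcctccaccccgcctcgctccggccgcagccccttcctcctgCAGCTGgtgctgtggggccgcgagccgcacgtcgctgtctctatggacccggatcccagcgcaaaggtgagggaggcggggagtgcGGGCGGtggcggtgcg
Sema4d, chr13:51756634-51756933, minus strand, the most upstream of its 3 windows: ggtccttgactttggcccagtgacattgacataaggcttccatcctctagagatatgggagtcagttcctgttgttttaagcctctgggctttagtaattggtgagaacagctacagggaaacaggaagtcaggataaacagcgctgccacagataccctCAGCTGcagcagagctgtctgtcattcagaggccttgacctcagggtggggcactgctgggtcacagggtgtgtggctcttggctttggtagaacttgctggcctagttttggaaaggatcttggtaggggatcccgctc
Unc5b, chr10:60831532-60831831, minus strand: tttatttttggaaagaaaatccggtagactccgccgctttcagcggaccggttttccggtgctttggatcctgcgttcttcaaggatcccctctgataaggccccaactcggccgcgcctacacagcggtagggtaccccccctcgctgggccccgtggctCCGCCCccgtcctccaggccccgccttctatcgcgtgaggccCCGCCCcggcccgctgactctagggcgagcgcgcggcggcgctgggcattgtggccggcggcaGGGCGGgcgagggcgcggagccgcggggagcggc
Plxnb3, chrX:73756853-73757152, plus strand: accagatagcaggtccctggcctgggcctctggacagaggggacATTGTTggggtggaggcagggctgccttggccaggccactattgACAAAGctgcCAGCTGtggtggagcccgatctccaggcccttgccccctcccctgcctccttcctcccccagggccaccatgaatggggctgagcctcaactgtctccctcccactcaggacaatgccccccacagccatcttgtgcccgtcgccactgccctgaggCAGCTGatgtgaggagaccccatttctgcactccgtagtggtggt

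The Plxnc1 and Sema4g windows hold 4 GC boxes each and the Unc5b window holds 3, whereas those of Sema4d and Plxnb3 hold none. CpG pairs number 30 in the windows of Plxnc1 and Sema4g, 36 in that of Unc5b, 4 in that of Plxnb3 and 2 in that of Sema4d. The E-box occurs in the windows of Sema4g (1), Sema4d (1) and Plxnb3 (2), and the SOX-type words ACAAAG and AACAAT occur once each in that of Plxnb3 only among these 5. Over the 50 members with a window, 78.0% held a GC box and 14.0% an E-box, against 35.9% and 16.1% of 27025 genes in the table. Each gene gave 1 window, the most upstream, and the table was not limited to genes on the array. ACAAAG was in 14.0% of members' windows and 18.7% of all windows, AACAAT in 2.0% and 10.9%, and CTGGTAC in 4.0% and 2.2%. CTGGCAC was in 10% of members' windows (5 of 50) and 5.0% of all windows. The median window of a member had 23 CpG pairs, against 7 in the whole table. These are letter matches in a window of 300 bases and say nothing of binding.

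In SMA vehicle cords, more guidance genes were higher than lower relative to wildtype cords. Plxnc1, Sema4g, Efna3, Ephb3, Ntn1 and Epha5 were 2.08-fold to 3.07-fold higher, while Sema3b, Plxnb3, Unc5b and Sema4d were 2.38-fold to 5.56-fold lower. Of the 40 members bright enough to test (mean log2 value above the 40th percentile of all probe sets, a geometric mean signal of 125), 20 rose, 5 fell and 15 did not pass an adjusted p of 0.05 in limma. The 20 that rose are 50.0% of the members tested, where 24.9% of all 13575 probe sets tested rose, and the 5 that fell are 12.5%, where 22.3% of all probe sets fell. The filter left out 18 members. Another 6 (Sema6c, Sema3c, Sema3b, Efna2, Ephb3 and Sema5b) passed it on their mean but lay above its limit in only some of the 3 groups. Without the filter 28 of 58 members rose and 6 fell, that is 48.3% and 10.3% of the members beside 16.5% and 14.8% of all 22626 probe sets. The median log2 difference over the 58 members was 0.51, with 42 above 0 and 16 below, while the median of all probe sets was -0.02.

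Between the SMA groups, more members were lower than higher in SMA ceftriaxone cords. Relative to SMA vehicle cords, Plxnc1, Ntn1, Sema6c and Sema4g fell furthest among the 40 members tested, and Sema4d, Unc5b, Plxnb3 and Sema3b rose furthest. In all 15 members fell, 6 rose and 19 did not pass. The 15 are 37.5% of the members tested, beside 17.7% of all probe sets, and the 6 are 15%, beside 18.3%. Without the filter 21 members fell (36.2%) and 6 rose (10.3%), where 10.8% and 11.5% of all probe sets did. Unc50, not a guidance gene, is among the 6 that rose. Leaving it out, 5 of 39 members tested rose (12.8%), and 5 of 57 (8.8%) without the filter. The median log2 difference over the 58 members was -0.26, and that of all probe sets 0.02. Both comparisons use the SMA vehicle arrays, so a high or low value on those arrays enters them with opposite sign, and the values of each comparison are given side by side below.

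Wildtype array 2 and Xist were unevenly spread over the groups, so the counts were repeated without that array and with the log2 Xist signal as a covariate. Without wildtype array 2, 21 members rose and 7 fell in SMA vehicle cords against wildtype, and 7 rose and 19 fell in SMA ceftriaxone against SMA vehicle cords, where 30.9%, 27.5%, 24.6% and 25.6% of all probe sets did. With Xist as a covariate, 20 members rose and 5 fell in SMA vehicle cords against wildtype, and 5 rose and 14 fell in SMA ceftriaxone against SMA vehicle cords, where 24.1%, 21.8%, 13.4% and 12.9% of all probe sets did. Markers of myelin were lowest and markers of immature neurons highest in SMA vehicle cords, as given at the end, and their part in these counts was not tested. In a whole cord, fewer cells of a type and less RNA per cell cannot be told apart.

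**Figure D1:**
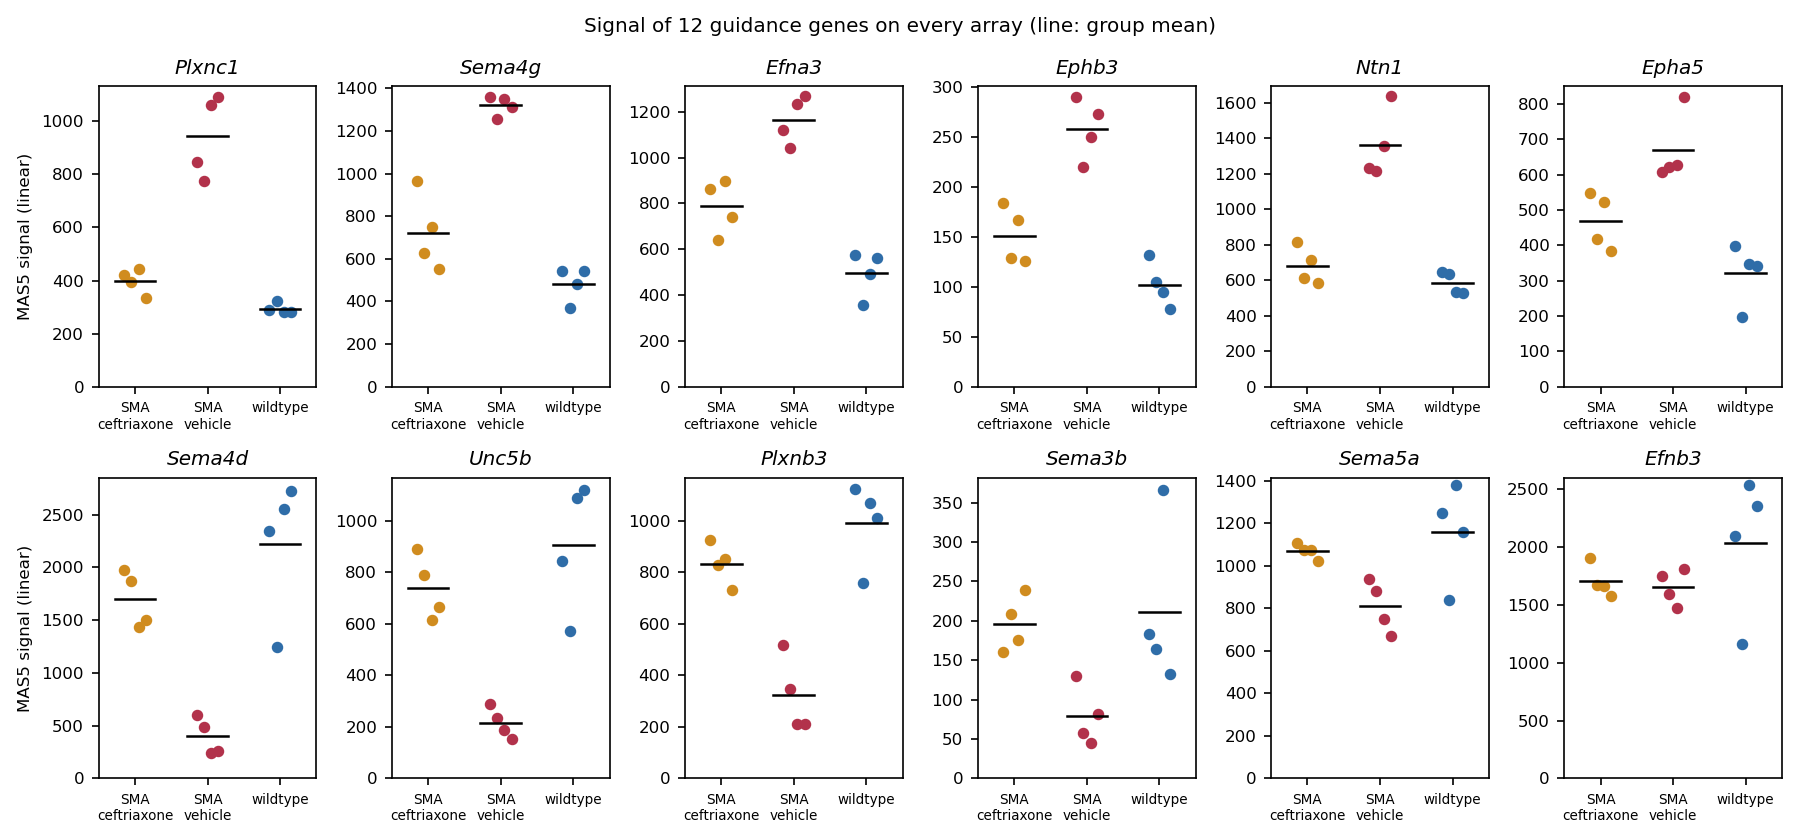
MAS5 signal (linear axis from 0) of 12 members on every array, with the 4 arrays of each group as points and the group mean as a line, for SMA ceftriaxone, SMA vehicle and wildtype cords. For Plxnc1, Sema4g, Efna3, Ephb3, Ntn1 and Epha5 every SMA vehicle array lies above all others, for Sema4d, Unc5b, Plxnb3 and Sema3b every one lies below all others, and Sema5a and Efnb3 overlap with wildtype.

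The secreted semaphorins are diffusible cues, and 4 of their 5 genes on the array could be tested. In SMA vehicle cords 2 of them rose (Sema3a and Sema3c), 1 fell (Sema3b) and Sema3e did not pass. The rises are 50.0% and the fall 25.0% of the genes tested, beside 24.9% and 22.3% of all probe sets. Sema3a, the classical growth cone repellent that acts through Nrp1, had signals of 832.7, 694.0, 747.6 and 567.5 in SMA ceftriaxone cords and 900.0, 940.6, 1067.8 and 971.0 in SMA vehicle cords, against 646.4, 458.6, 485.8 and 555.0 in wildtype cords. All 4 SMA vehicle arrays were above the arrays of both other groups, and the SMA ceftriaxone arrays overlapped with wildtype. The log2 difference for Sema3a, with its standard error over 4 arrays a group, was 0.84 ± 0.13 (adjusted p 0.000136) in SMA vehicle cords against wildtype and -0.45 ± 0.13 (adjusted p 0.0143) in SMA ceftriaxone against SMA vehicle cords. The second difference did not pass with Xist signal as a covariate or among arrays with Xist above 1000, where its adjusted p reached 0.0673.

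Sema3c, whose product can attract or repel depending on the axon, had signals of 97.3, 164.2, 147.0 and 164.9 in SMA ceftriaxone cords and 178.9, 146.5, 186.9 and 241.9 in SMA vehicle cords, against 102.7, 99.3, 100.6 and 88.0 in wildtype cords. SMA vehicle arrays were all above wildtype, with a log2 difference of 0.83 ± 0.18 (adjusted p 0.00167), whereas SMA ceftriaxone arrays spread over both. The difference did not pass among arrays with Xist above 1000 (adjusted p 0.0526) or at or below 1000 (adjusted p 0.0631). Sema3b moved the other way. Its signals were 160.1, 208.9, 176.0 and 238.6 in SMA ceftriaxone cords and 129.4, 57.3, 45.3 and 82.2 in SMA vehicle cords, against 183.8, 163.9, 365.9 and 132.7 in wildtype cords. Every SMA vehicle array of Sema3b was below every array of the other groups, with a log2 difference of -1.25 ± 0.30 (adjusted p 0.00392) against wildtype and of 1.23 ± 0.30 (adjusted p 0.00647) for SMA ceftriaxone against SMA vehicle cords. Sema3f, a repellent that acts through Nrp2, lay below the filter. When all probe sets were tested, its log2 difference was 1.43 ± 0.28 (adjusted p 0.00152) in SMA vehicle cords against wildtype and -1.01 ± 0.28 (adjusted p 0.0194) in SMA ceftriaxone against SMA vehicle cords.

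The neuropilins, co-receptors for these secreted cues, both rose in SMA vehicle cords, and both were lower in SMA ceftriaxone than in SMA vehicle cords. Of all probe sets, 24.9% rose in SMA vehicle cords against wildtype and 17.7% fell in SMA ceftriaxone against SMA vehicle cords. Nrp1 signals were 949.3, 806.9, 911.5 and 748.6 in SMA ceftriaxone cords and 1224.3, 1215.5, 1145.3 and 1268.8 in SMA vehicle cords, against 913.1, 972.4, 729.5 and 878.0 in wildtype cords. Nrp2 signals were 506.4, 483.7, 480.9 and 414.9 in SMA ceftriaxone cords and 635.1, 640.0, 594.8 and 686.5 in SMA vehicle cords, against 475.5, 393.4, 395.7 and 432.1 in wildtype cords. For both genes the SMA vehicle arrays stood above all arrays of the other groups. On the brightest sets the differences against wildtype were moderate in size, 0.47 ± 0.10 (adjusted p 0.00165) for Nrp1 and 0.58 ± 0.09 (adjusted p 0.000214) for Nrp2 on the log2 scale. In SMA ceftriaxone against SMA vehicle cords they were -0.50 ± 0.10 (adjusted p 0.00184) for Nrp1 and -0.43 ± 0.09 (adjusted p 0.00302) for Nrp2. The other Nrp1 sets, 1418084_at and 1448944_at, passed in the same directions with larger differences. They were 0.67 ± 0.13 and 1.01 ± 0.17 in SMA vehicle cords against wildtype, and -0.78 ± 0.13 and -0.93 ± 0.17 in SMA ceftriaxone against SMA vehicle cords.

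Among the plexins, the receptors that carry the semaphorin signal, 4 of 6 genes tested rose in SMA vehicle cords and 1 fell. These are 66.7% and 16.7% of the plexins tested, beside 24.9% and 22.3% of all probe sets. Plxnc1, the receptor for Sema7a (probe set 1423213_at), had the largest rise of all members tested. Its signals were 422.7, 392.7, 443.3 and 334.6 in SMA ceftriaxone cords and 847.2, 774.4, 1060.8 and 1091.6 in SMA vehicle cords, against 289.4, 322.4, 281.9 and 281.2 in wildtype cords. The 3 groups did not overlap, with SMA vehicle cords highest and SMA ceftriaxone cords just above wildtype. Plxnc1 was 3.07-fold higher in SMA vehicle cords than in wildtype, a log2 difference of 1.62 ± 0.12 (adjusted p 1.28e-06), and its log2 difference in SMA ceftriaxone against SMA vehicle cords was -1.20 ± 0.12 (adjusted p 4.7e-05). Between SMA ceftriaxone and wildtype cords the log2 difference was 0.41 ± 0.12 (adjusted p 0.0791). For its ligand gene Sema7a the SMA vehicle arrays overlapped with wildtype, with a log2 difference of -0.15 ± 0.10 (adjusted p 0.219) in SMA vehicle cords against wildtype, and all 4 SMA ceftriaxone arrays (1094.7 to 1224.0) lay below all wildtype arrays (1244.5 to 1617.3) without passing the test.

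Plxna2 and Plxna3, plexins that pair with neuropilins, also rose. Plxna2 signals were 388.7, 296.6, 383.9 and 285.9 in SMA ceftriaxone cords and 411.4, 563.1, 561.8 and 511.7 in SMA vehicle cords, against 299.1, 198.3, 246.4 and 258.8 in wildtype cords. Plxna3 signals were 380.8, 310.9, 296.6 and 284.0 in SMA ceftriaxone cords and 481.8, 446.3, 603.2 and 689.8 in SMA vehicle cords, against 289.7, 224.9, 293.8 and 297.6 in wildtype cords. In both genes every SMA vehicle array exceeded every other array, and the other groups overlapped. The log2 differences against wildtype were 0.99 ± 0.15 (adjusted p 0.000134) for Plxna2 and 0.95 ± 0.15 (adjusted p 0.000164) for Plxna3, and those of SMA ceftriaxone against SMA vehicle cords were -0.58 ± 0.15 (adjusted p 0.00872) for Plxna2 and -0.76 ± 0.15 (adjusted p 0.00154) for Plxna3. The second difference of Plxna2 did not pass among arrays with Xist above 1000 (adjusted p 0.074). Plxna1, a relative of both, was dim and lay below the filter, with signals of 54.8, 50.2, 55.1 and 31.5 in SMA ceftriaxone cords and 94.1, 57.6, 82.9 and 86.9 in SMA vehicle cords, against 47.8, 42.1, 56.2 and 51.8 in wildtype cords. Its SMA vehicle arrays were the highest by a small margin, and when all probe sets were tested its log2 difference was 0.55 ± 0.18 (adjusted p 0.0377) in SMA vehicle cords against wildtype and -0.60 ± 0.18 (adjusted p 0.034) in SMA ceftriaxone against SMA vehicle cords.

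Plxnb2, a receptor for Sema4 proteins, had signals of 715.0, 611.9, 730.1 and 557.8 in SMA ceftriaxone cords and 1045.8, 793.0, 904.0 and 993.4 in SMA vehicle cords, against 584.7, 379.8, 614.7 and 580.4 in wildtype cords. SMA vehicle arrays were above all others, with a log2 difference of 0.79 ± 0.15 (adjusted p 0.00075) against wildtype. The log2 difference of -0.51 ± 0.15 (adjusted p 0.0182) for Plxnb2 in SMA ceftriaxone against SMA vehicle cords did not pass when any of 4 arrays was left out (the SMA vehicle arrays 1 and 4, the ceftriaxone arrays 2 and 4), where its adjusted p reached 0.0582. Plxnb3, a receptor for Sema5a that is found in oligodendrocytes, was the plexin that fell. Its signals were 923.7, 826.4, 849.6 and 728.8 in SMA ceftriaxone cords and 519.2, 346.0, 209.4 and 211.3 in SMA vehicle cords, against 1121.6, 756.1, 1069.1 and 1008.6 in wildtype cords. No SMA vehicle array reached the lowest array of either other group. The log2 difference for Plxnb3 was -1.66 ± 0.23 (adjusted p 8.61e-05) in SMA vehicle cords against wildtype and 1.42 ± 0.23 (adjusted p 0.000566) in SMA ceftriaxone against SMA vehicle cords. Plxnd1, the receptor of Sema3e, had a signal of 1019.5 on wildtype array 2 and of 186.3 to 239.6 on the other wildtype arrays, and it did not pass in any comparison.

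All 12 membrane semaphorins, which act at cell contacts, could be tested, and in SMA vehicle cords 3 rose, 2 fell and 7 did not pass. These are 25.0% and 16.7% of the family, near the 24.9% and 22.3% of all probe sets. Sema4g, a ligand of Plxnb2 (probe set 1449202_at), had signals of 963.6, 625.8, 749.5 and 551.6 in SMA ceftriaxone cords and 1360.6, 1254.1, 1348.7 and 1313.5 in SMA vehicle cords, against 542.0, 368.2, 481.2 and 541.0 in wildtype cords. The SMA vehicle arrays were the highest and lay close together, and each SMA ceftriaxone array exceeded each wildtype array. Sema4g was 2.70-fold higher in SMA vehicle cords than in wildtype, a log2 difference of 1.43 ± 0.16 (adjusted p 1.24e-05), and differed by -0.88 ± 0.16 (adjusted p 0.000928) between SMA ceftriaxone and SMA vehicle cords. Sema4b, a further class 4 semaphorin, had signals of 194.0, 172.6, 187.9 and 168.8 in SMA ceftriaxone cords and 251.4, 325.6, 246.4 and 286.3 in SMA vehicle cords, against 105.2, 159.3, 103.8 and 146.4 in wildtype cords. Here too the 3 groups were apart, with a log2 difference of 1.03 ± 0.15 (adjusted p 8.8e-05) for SMA vehicle against wildtype cords and of -0.57 ± 0.15 (adjusted p 0.00873) for SMA ceftriaxone against SMA vehicle cords.

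Sema5b, a relative of Sema5a, was high in both SMA groups. Its signals were 215.0, 225.6, 211.6 and 182.7 in SMA ceftriaxone cords and 228.9, 213.0, 183.1 and 241.1 in SMA vehicle cords, against 160.7, 111.4, 130.0 and 80.1 in wildtype cords. Both SMA groups lay above all wildtype arrays and overlapped with each other. The log2 difference was 0.80 ± 0.17 (adjusted p 0.00169) in SMA vehicle cords and 0.75 ± 0.17 (adjusted p 0.0274) in SMA ceftriaxone cords, each against wildtype, and -0.05 ± 0.17 (adjusted p 0.853) between SMA ceftriaxone and SMA vehicle cords. Sema6c, a class 6 semaphorin, had 61.0, 116.3, 122.9 and 76.0 in SMA ceftriaxone cords and 166.5, 192.8, 174.5 and 238.8 in SMA vehicle cords, against 140.8, 116.3, 93.5 and 169.6 in wildtype cords. SMA ceftriaxone arrays were all below SMA vehicle arrays, with a log2 difference of -0.96 ± 0.22 (adjusted p 0.00415), while SMA vehicle and wildtype arrays overlapped, at 0.53 ± 0.22 (adjusted p 0.0583). This difference passed under 8 alternatives, quantile normalization and median centring among them, with an adjusted p down to 0.0321. The dimmer Sema6c sets 1451898_a_at and 1437652_at lay below the filter. When all probe sets were tested, they had -0.61 ± 0.37 (adjusted p 0.28) and -0.02 ± 0.23 (adjusted p 0.958) in SMA ceftriaxone against SMA vehicle cords.

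Sema4d fell furthest of all members in SMA vehicle cords (probe set 1434596_at). It encodes a membrane semaphorin made by oligodendrocytes, whose receptors include plexin-B proteins. Its signals were 1975.8, 1874.0, 1432.4 and 1500.3 in SMA ceftriaxone cords and 599.0, 489.2, 237.3 and 262.2 in SMA vehicle cords, against 2346.7, 1241.6, 2553.0 and 2726.8 in wildtype cords. The lowest SMA ceftriaxone array was far above the highest SMA vehicle array, and wildtype array 2 was the lowest of its group. Sema4d was 5.56-fold lower in SMA vehicle cords than in wildtype, a log2 difference of -2.48 ± 0.29 (adjusted p 2.19e-05), and 4.41-fold higher in SMA ceftriaxone than in SMA vehicle cords, a log2 difference of 2.14 ± 0.29 (adjusted p 0.000168). Its other probe sets, 1420824_at and 1420823_at, passed in the same directions with smaller differences, -0.89 ± 0.13 and -1.31 ± 0.21 in SMA vehicle cords against wildtype.

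Sema5a, a cue with both attractive and repulsive actions, showed the smallest change among the 5 members that fell. Its signals were 1105.6, 1072.8, 1071.8 and 1021.6 in SMA ceftriaxone cords and 936.9, 878.9, 749.9 and 668.2 in SMA vehicle cords, against 1248.7, 838.1, 1379.1 and 1160.5 in wildtype cords. SMA vehicle arrays were below all SMA ceftriaxone arrays but overlapped with wildtype array 2. The log2 difference was -0.50 ± 0.14 (adjusted p 0.0105) against wildtype. Its difference of 0.41 ± 0.14 (adjusted p 0.0378) in SMA ceftriaxone against SMA vehicle cords did not pass under 10 of 26 alternatives, among them testing all probe sets, with an adjusted p of up to 0.142. Sema4a, Sema4f, Sema6a, Sema6b, Sema6d and Sema7a did not pass in any of the 3 comparisons. For Sema6a, leaving out wildtype array 2 gave a log2 difference of -0.43 (adjusted p 0.0175) in SMA vehicle cords against wildtype.

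Among netrins and their receptors, Ntn1 rose and Unc5b fell in SMA vehicle cords. Ntn1, the netrin that the floor plate uses to draw commissural axons, had signals of 814.7, 613.7, 713.2 and 583.8 in SMA ceftriaxone cords and 1230.2, 1218.4, 1359.0 and 1639.3 in SMA vehicle cords, against 646.4, 634.6, 532.3 and 529.4 in wildtype cords. SMA vehicle arrays were all far above the rest, and SMA ceftriaxone arrays overlapped with wildtype. Ntn1 was 2.28-fold higher in SMA vehicle cords than in wildtype, a log2 difference of 1.19 ± 0.13 (adjusted p 9.58e-06), and its log2 difference in SMA ceftriaxone against SMA vehicle cords was -0.98 ± 0.13 (adjusted p 0.000113). Ntn3 and Ntn4, other netrins, lay below the filter, and when all probe sets were tested Ntn3 had a log2 difference of 0.56 ± 0.19 (adjusted p 0.0419) in SMA vehicle cords against wildtype, while Ntn4 did not pass.

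Unc5b, a netrin receptor that vessels use too (probe set 1435110_at), had signals of 891.8, 791.0, 614.2 and 664.7 in SMA ceftriaxone cords and 288.7, 235.2, 186.6 and 153.3 in SMA vehicle cords, against 845.6, 570.6, 1089.2 and 1120.4 in wildtype cords. SMA vehicle arrays were well below all others, and the SMA ceftriaxone and wildtype arrays overlapped. Unc5b was 3.94-fold lower in SMA vehicle cords than in wildtype, a log2 difference of -1.98 ± 0.22 (adjusted p 1.4e-05), and 3.31-fold higher in SMA ceftriaxone than in SMA vehicle cords, a log2 difference of 1.73 ± 0.22 (adjusted p 0.000114). Unc5c, another repulsive netrin receptor, had a log2 difference of -0.15 ± 0.15 (adjusted p 0.426) in SMA vehicle cords against wildtype and of 0.30 ± 0.15 (adjusted p 0.132) in SMA ceftriaxone against SMA vehicle cords, and passed in neither. Dcc, the receptor for attraction to netrin, was dim and below the filter, with signals of 39.2, 76.8, 55.4 and 107.0 in SMA ceftriaxone cords and 65.6, 74.0, 52.7 and 73.9 in SMA vehicle cords, against 42.6, 52.4, 10.5 and 12.3 in wildtype cords. Its lowest SMA vehicle array was only just above the highest wildtype array. When all probe sets were tested, the log2 difference of Dcc was 0.98 ± 0.33 (adjusted p 0.0378) in SMA vehicle cords against wildtype and 0.98 ± 0.33 (adjusted p 0.163) in SMA ceftriaxone cords against wildtype, with overlapping arrays between the SMA groups.

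Of the Slits and Robo receptors, the main midline repellent system, Slit2 and Robo1 were above the filter. Slit2 signals were 702.4, 617.0, 654.7 and 584.6 in SMA ceftriaxone cords and 735.0, 666.8, 724.2 and 808.0 in SMA vehicle cords, against 695.8, 503.5, 541.8 and 566.6 in wildtype cords. SMA vehicle arrays overlapped with the highest wildtype array. The log2 difference of 0.34 ± 0.10 (adjusted p 0.0156) was the smallest rise among those that passed. It did not pass without SMA vehicle array 4 (adjusted p 0.0533), as the mean of all Slit2 probe sets or among arrays with Xist at or below 1000, with an adjusted p of up to 0.386. Robo1 signals were 788.7, 645.2, 772.3 and 632.2 in SMA ceftriaxone cords and 972.0, 920.6, 729.7 and 1053.8 in SMA vehicle cords, against 571.5, 493.8, 585.8 and 602.3 in wildtype cords. Both SMA groups were above all wildtype arrays, and SMA vehicle array 3 fell among the SMA ceftriaxone arrays. The log2 difference of Robo1 was 0.68 ± 0.12 (adjusted p 0.000436) in SMA vehicle cords against wildtype and -0.36 ± 0.12 (adjusted p 0.0314) in SMA ceftriaxone against SMA vehicle cords. The second did not pass under quantile normalization or when any of 5 arrays was left out (the SMA vehicle arrays 1, 2 and 4, the ceftriaxone arrays 2 and 4), with an adjusted p of up to 0.103.

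Slit1 lay just below the filter, at a mean log2 value of 7.12 where the limit was 7.14, followed by Efna1 at 7.10. The members just above the limit were Sema6c at 7.20 and Sema3c at 7.26. Slit1 signals were 109.8, 50.9, 129.7 and 111.2 in SMA ceftriaxone cords and 266.4, 231.0, 236.0 and 370.6 in SMA vehicle cords, against 92.8, 78.6, 99.9 and 26.3 in wildtype cords. Its SMA vehicle arrays were all above the other groups, which overlapped. When all probe sets were tested, the log2 difference of Slit1 was 1.77 ± 0.33 (adjusted p 0.00115) in SMA vehicle cords against wildtype and -1.36 ± 0.33 (adjusted p 0.0097) in SMA ceftriaxone against SMA vehicle cords. Slit3, Robo3, the Robo of commissural neurons, and Robo4, the Robo of endothelium, did not pass in any comparison.

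Among the ephrins, 2 of 5 genes tested rose in SMA vehicle cords and 3 did not pass, where 24.9% of all probe sets rose and 22.3% fell. Efna3 (probe set 1431170_at), a membrane-anchored ligand of EphA receptors, had signals of 864.9, 641.3, 898.8 and 742.0 in SMA ceftriaxone cords and 1121.9, 1041.7, 1232.5 and 1266.7 in SMA vehicle cords, against 573.1, 355.4, 493.2 and 559.9 in wildtype cords. The 3 groups did not overlap, with SMA ceftriaxone between the others. The log2 difference of Efna3 was 1.23 ± 0.15 (adjusted p 2.38e-05) in SMA vehicle cords against wildtype, -0.57 ± 0.15 (adjusted p 0.00939) in SMA ceftriaxone against SMA vehicle cords, and 0.66 ± 0.15 (adjusted p 0.0268) in SMA ceftriaxone cords against wildtype. Efnb2, a transmembrane ephrin of arteries and neurons, averaged 309 ± 36.9 in SMA ceftriaxone cords and 405 ± 50.1 in SMA vehicle cords, against 244 ± 49.4 in wildtype cords (SD, n = 4 each). Its log2 difference was 0.71 ± 0.14 (adjusted p 0.0012) in SMA vehicle cords against wildtype and -0.37 ± 0.14 (adjusted p 0.0578) in SMA ceftriaxone against SMA vehicle cords. The second difference passed under 8 alternatives, quantile normalization and median centring among them. A further probe set of Efnb2, 1419638_at, passed in that comparison, at -0.42 ± 0.13 (adjusted p 0.0205).

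Efnb3, the midline ephrin that keeps corticospinal axons from crossing, had signals of 1902.8, 1673.5, 1665.2 and 1577.5 in SMA ceftriaxone cords and 1748.7, 1595.2, 1472.9 and 1808.6 in SMA vehicle cords, against 2093.9, 1160.6, 2533.7 and 2359.1 in wildtype cords. The groups overlapped through wildtype array 2, the lowest of all 12 arrays, and the log2 difference of -0.24 ± 0.19 (adjusted p 0.318) in SMA vehicle cords against wildtype did not pass. Without that array the log2 difference of Efnb3 was -0.49 (adjusted p 0.00049) in SMA vehicle cords and -0.45 (adjusted p 0.0103) in SMA ceftriaxone cords, each against wildtype. Efna1, an EphA ligand below the filter, had a log2 difference of -0.59 ± 0.17 (adjusted p 0.0195) in SMA vehicle cords against wildtype and of 0.70 ± 0.17 (adjusted p 0.0108) in SMA ceftriaxone against SMA vehicle cords when all probe sets were tested. Efna5, a repellent of topographic maps that also lay below the filter, had differences of the opposite signs, 0.64 ± 0.22 (adjusted p 0.0444) and -0.93 ± 0.22 (adjusted p 0.00943) in the same comparisons.

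The Eph receptors had 5 of 11 genes above the filter, and 4 of these rose in SMA vehicle cords. That is 80.0% of the receptors tested, beside 24.9% of all probe sets. Ephb3, a receptor for ephrin-B ligands, had signals of 183.8, 128.4, 167.2 and 125.6 in SMA ceftriaxone cords and 290.1, 219.6, 249.4 and 272.4 in SMA vehicle cords, against 131.8, 104.7, 95.0 and 77.6 in wildtype cords. Epha5, an EphA receptor of neurons, had 548.2, 419.1, 523.2 and 384.8 in SMA ceftriaxone cords and 607.8, 622.4, 626.8 and 819.4 in SMA vehicle cords, against 397.8, 197.9, 346.6 and 340.2 in wildtype cords. Epha7, a further EphA receptor, had 210.9, 155.5, 157.4 and 171.0 in SMA ceftriaxone cords and 304.3, 261.2, 317.4 and 325.3 in SMA vehicle cords, against 203.6, 129.2, 120.1 and 157.7 in wildtype cords. For all 3 receptors the SMA vehicle arrays stood above every array of the other groups, which overlapped with each other. The log2 differences in SMA vehicle cords against wildtype were 1.22 ± 0.17 (adjusted p 6.08e-05) for Ephb3, 1.06 ± 0.19 (adjusted p 0.000512) for Epha5 and 0.94 ± 0.16 (adjusted p 0.000302) for Epha7. In SMA ceftriaxone against SMA vehicle cords Ephb3, at -0.72 ± 0.17 (adjusted p 0.00455), and Epha7, at -0.75 ± 0.16 (adjusted p 0.00251), passed, and Epha5, at -0.50 ± 0.19 (adjusted p 0.0535), did not. Without wildtype array 2 the difference of Epha5 in that comparison was -0.50 (adjusted p 0.00516).

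Epha4, the receptor that answers Efnb3 at the midline and is studied in motor neuron disease, had signals of 511.5, 467.6, 474.9 and 409.6 in SMA ceftriaxone cords and 515.3, 542.7, 647.4 and 677.3 in SMA vehicle cords, against 444.3, 291.8, 397.9 and 457.2 in wildtype cords. SMA vehicle arrays were the highest, though the lowest of them lay beside the highest SMA ceftriaxone array. The log2 difference of 0.57 ± 0.14 (adjusted p 0.0042) in SMA vehicle cords against wildtype passed, and that of -0.34 ± 0.14 (adjusted p 0.0751) in SMA ceftriaxone against SMA vehicle cords did not. The first did not pass among arrays with Xist above 1000 (adjusted p 0.059) or at or below 1000 (adjusted p 0.138). A second Epha4 probe set, 1421929_at, passed in the second comparison, at -0.49 ± 0.17 (adjusted p 0.0362), but not when all probe sets were tested (adjusted p 0.0599). Ephb6, which lacks kinase activity, had a signal of 863.4 on wildtype array 2 and of 295.6 to 311.2 on the other wildtype arrays. Its log2 difference in SMA vehicle cords against wildtype was 0.11 ± 0.28 (adjusted p 0.764), and without that array it was 0.48 (adjusted p 0.00691). Of the 6 Eph receptors below the filter, Epha3 and Epha8 passed when all probe sets were tested. Their log2 differences were 1.31 ± 0.25 (adjusted p 0.00123) and 1.43 ± 0.43 (adjusted p 0.022) in SMA vehicle cords against wildtype, and -0.84 ± 0.25 (adjusted p 0.0275) and -1.39 ± 0.43 (adjusted p 0.0336) in SMA ceftriaxone against SMA vehicle cords.

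**Figure D2:**
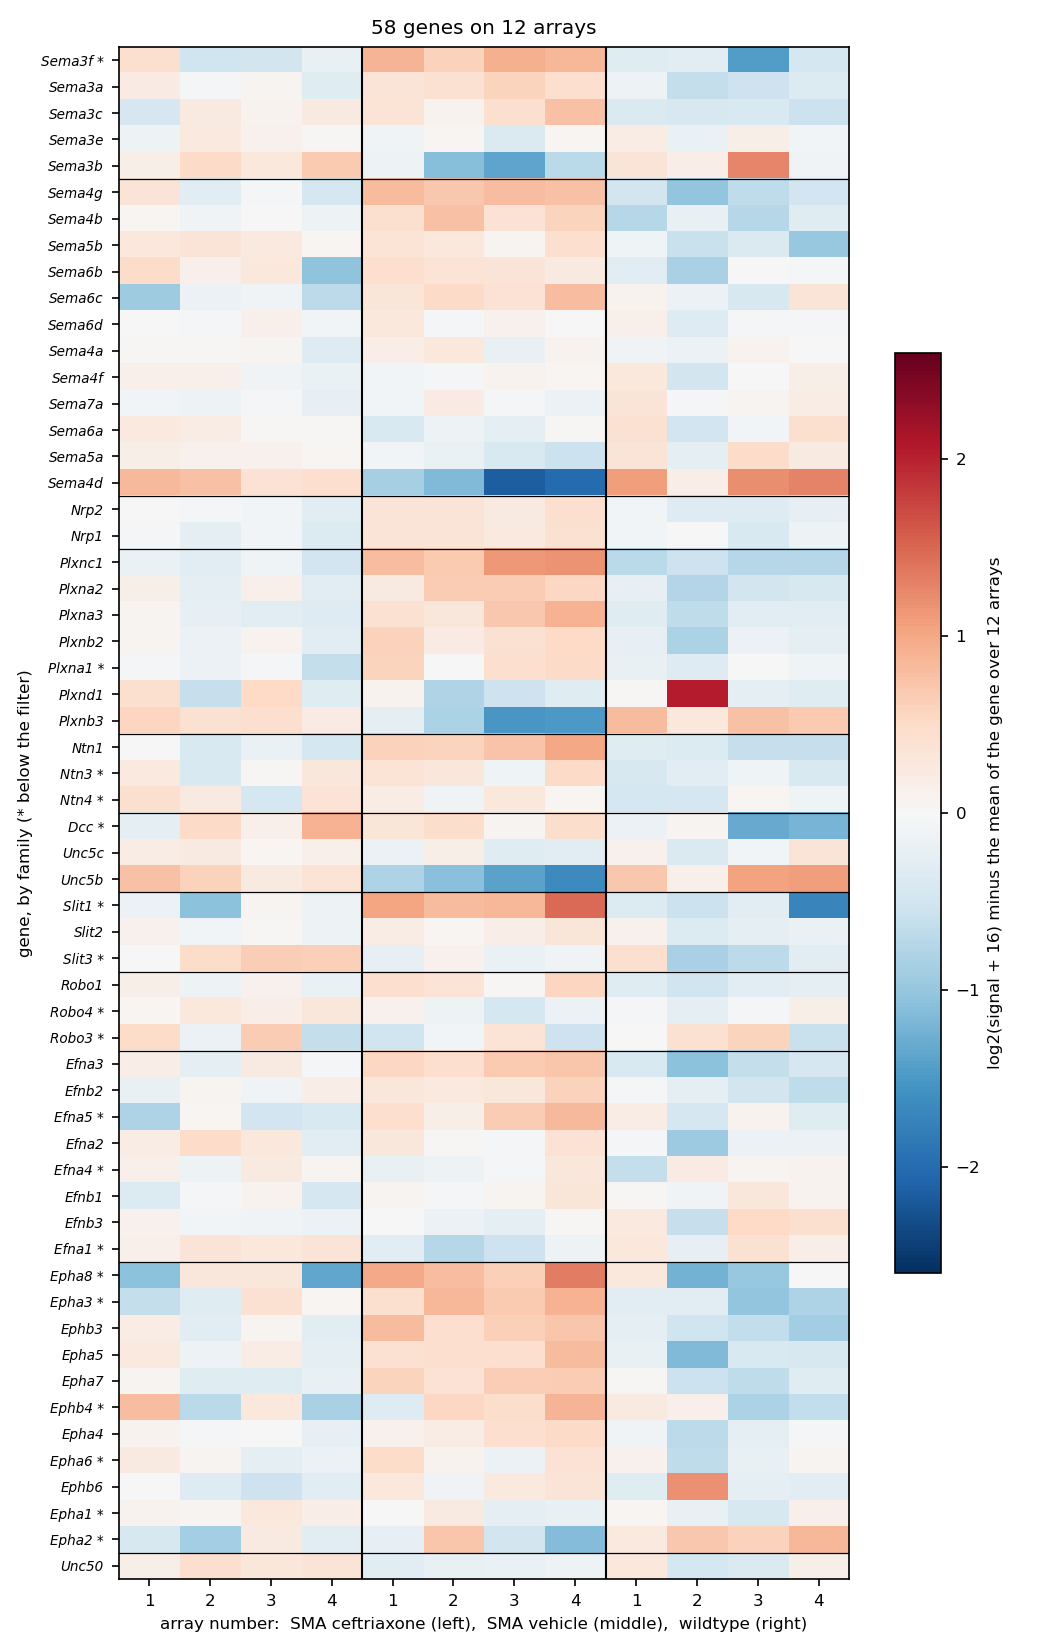
Signal of all 58 genes on the 12 arrays, as log2(signal + 16) minus the gene's mean over the arrays (red above, blue below), in rows by family with an asterisk for genes below the filter, and in columns for the 4 arrays each of SMA ceftriaxone, SMA vehicle and wildtype cords. The SMA vehicle columns are red for Plxnc1, Ntn1, Slit1 and Epha8 and blue for Sema4d, Plxnb3, Unc5b and Sema3b, and wildtype array 2 stands out for Plxnd1 and Ephb6.

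By family, with all members counted whether or not they passed the filter, the median log2 difference in SMA vehicle cords against wildtype was 0.83 for the 5 secreted semaphorins, 0.79 for the 7 plexins, 0.65 for the 11 Eph receptors, 0.56 for the 3 netrins, 0.53 for the 2 neuropilins and 0.35 for the 3 Slits. It was 0.27 for the 8 ephrins, 0.14 for the 12 membrane semaphorins, -0.12 for the 3 Robo genes and -0.15 for the 3 netrin receptors. In SMA ceftriaxone against SMA vehicle cords, which share the SMA vehicle arrays with the first comparison, the medians were -0.58 for plexins, -0.50 for Eph receptors, -0.47 for neuropilins, -0.37 for secreted semaphorins, -0.22 for netrins and -0.19 for Slits. They were -0.15 for ephrins, -0.09 for membrane semaphorins, 0.29 for Robo genes and 0.30 for netrin receptors. The Robo medians are the values of Robo4 (-0.12) and Robo3 (0.29), both below the filter. Robo1, the only Robo gene above it, went the other way and passed, at 0.68 and -0.36 in the same comparisons. Secreted semaphorins, membrane semaphorins and plexins each held members above the filter that rose and members that fell in SMA vehicle cords. When all probe sets were tested, ephrins (3 rose, 1 fell) and netrin receptors (1 rose, 1 fell) did so too. In that fit 16.5% of all probe sets rose and 14.8% fell.

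**Figure D3:**
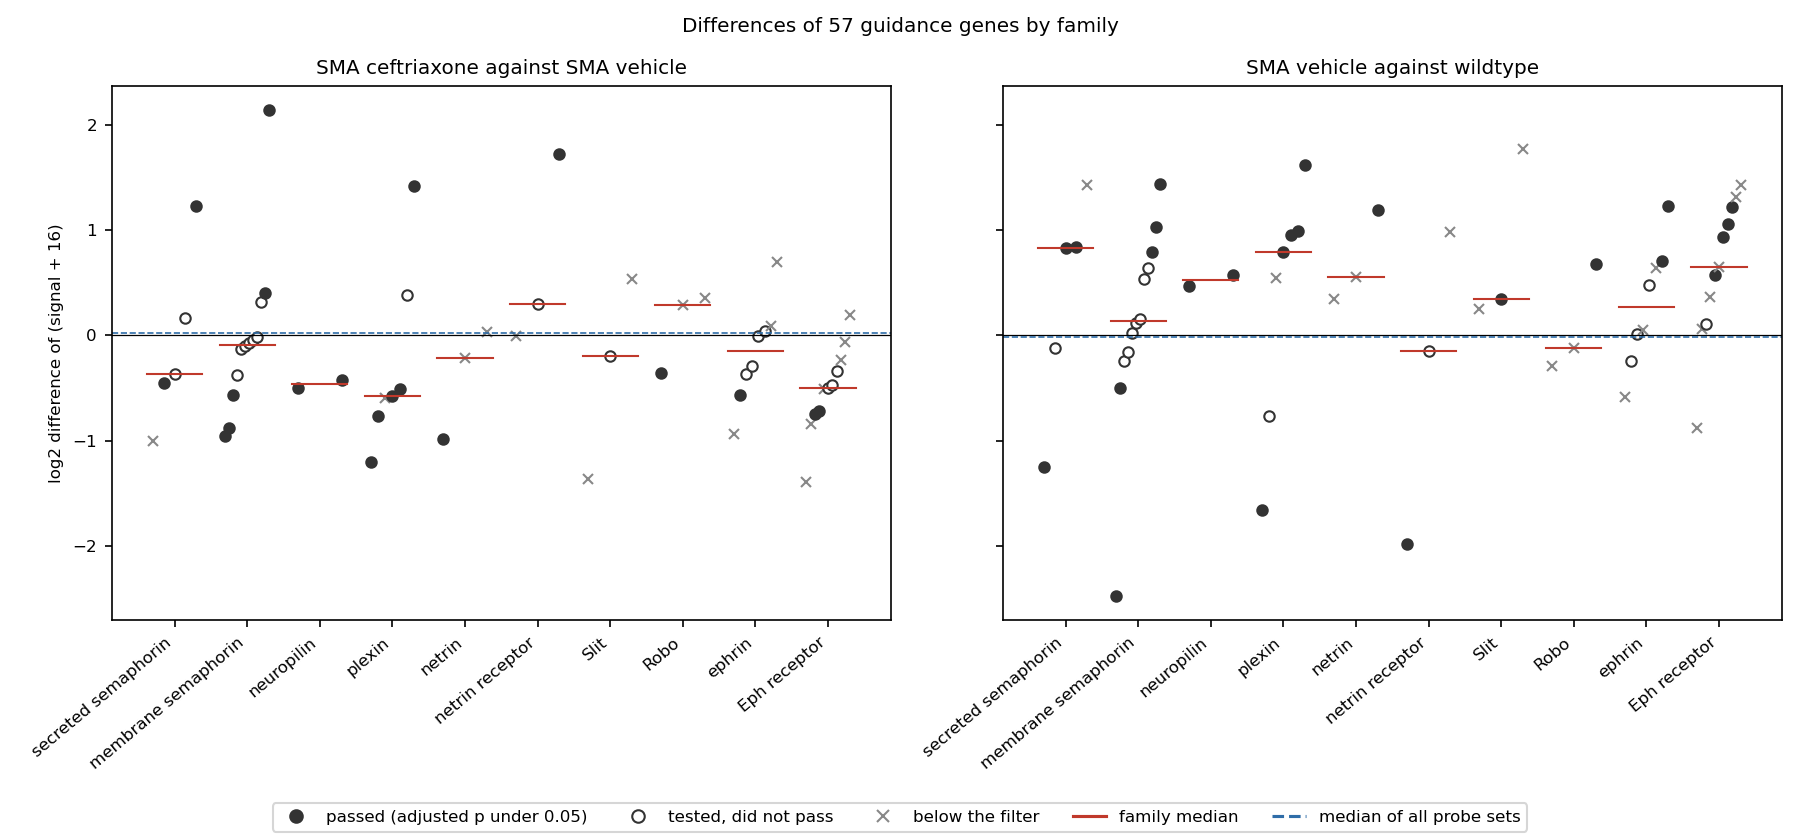
Log2 difference (vertical axis, of signal + 16) of 57 guidance genes by family, for SMA ceftriaxone against SMA vehicle cords on the left and SMA vehicle against wildtype cords on the right. Filled points passed an adjusted p of 0.05, open points did not, crosses were below the filter, red bars are family medians and the dashed line is the median of all probe sets (0.02 left, -0.02 right), from which the plexins and Eph receptors lie furthest below on the left.

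In SMA ceftriaxone cords set against wildtype, few guidance genes passed. Of the 40 members tested 2 were higher, Efna3 and Sema5b, and 0 were lower, that is 5.0% and 0.0% of the members beside 3.29% and 0.928% of all probe sets in limma. Without the filter 2 and 0 of 58 passed, where 1.55% and 0.464% of all probe sets did. At an unadjusted p of 0.05 in limma, 14 of the 40 members were higher, Unc50 among them, and 1 of 40, Sema7a, was lower. Of all 13575 probe sets tested, 1787 (13.2%) were higher and 940 (6.92%) lower at that limit. The median log2 difference over the 58 members was 0.17, with 41 above 0, and that of all probe sets was 0.01. For the members that were lowest in SMA vehicle cords, the log2 differences of SMA ceftriaxone cords against wildtype were -0.34 ± 0.29 (adjusted p 0.572) for Sema4d, -0.25 ± 0.22 (adjusted p 0.57) for Unc5b and -0.23 ± 0.23 (adjusted p 0.628) for Plxnb3. Ntn1 differed by 0.21 ± 0.13 (adjusted p 0.398), Nrp1 by -0.03 ± 0.10 (adjusted p 0.905) and Sema4g by 0.55 ± 0.16 (adjusted p 0.0681). A p that misses the threshold does not show that these levels are alike. Efna3 did not pass under 9 of 26 alternatives and Sema5b under 8 of 25, among them the fit to the 2 groups compared alone and the fit with Xist as a covariate. Without wildtype array 2, 4 members were higher and 2, Efnb3 and Sema7a, were lower, where 6.29% and 4.27% of all probe sets passed. Without wildtype array 1, 4 were higher, where 4.13% of all probe sets were.

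**Figure D4:**
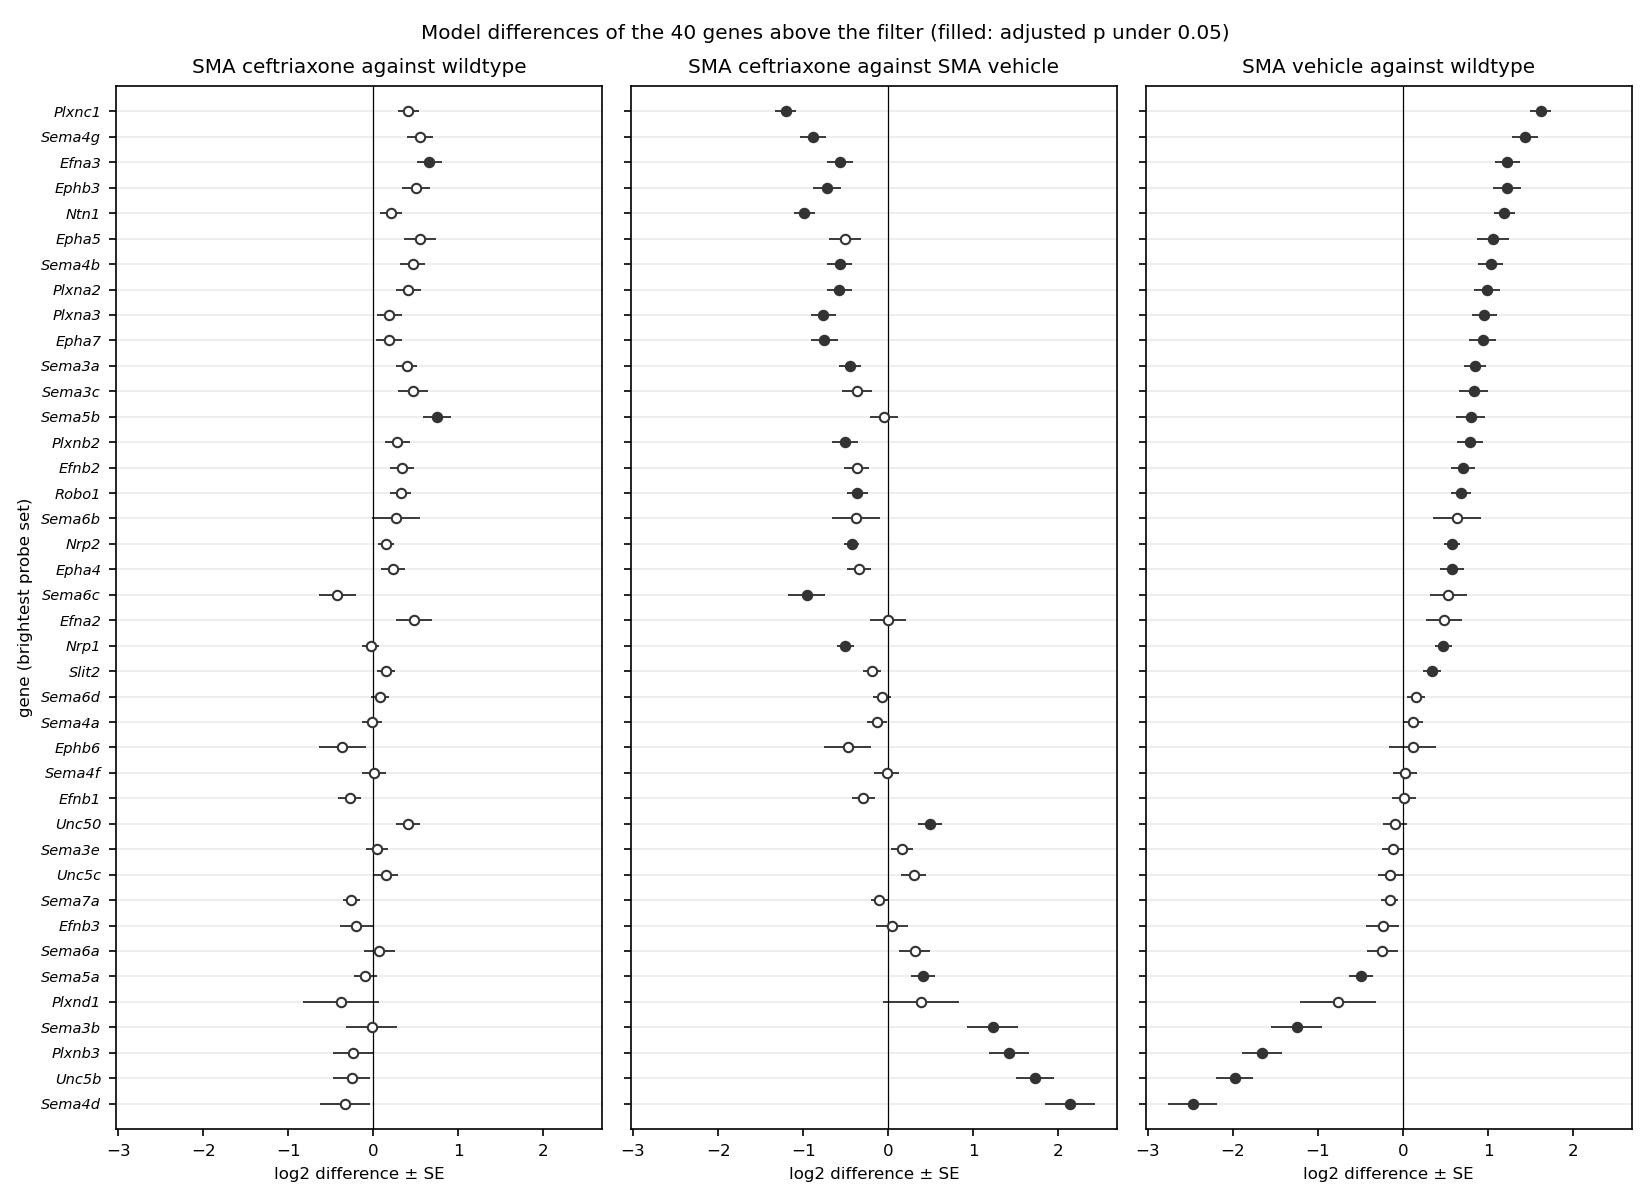
Log2 differences with standard errors of the 40 members above the filter for SMA ceftriaxone against wildtype, SMA ceftriaxone against SMA vehicle, and SMA vehicle against wildtype cords, with filled points for an adjusted p under 0.05. In the comparison of SMA ceftriaxone with wildtype cords only Efna3 and Sema5b are filled, against 21 and 25 members in the comparisons that involve SMA vehicle cords. Fewer of all probe sets passed there too, with 3.29% higher and 0.928% lower. In the other comparisons, in the same order, 18.3% and 17.7%, and 24.9% and 22.3%, of all probe sets did.

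The 26 members with several probe sets had 41 sets besides the brightest. When all probe sets were tested, 13 of these 41 had another call than the brightest set in SMA vehicle cords against wildtype, 12 in SMA ceftriaxone against SMA vehicle cords and 0 in SMA ceftriaxone cords against wildtype. Of these sets 11 of 13 and 9 of 12 lay below the filter, and 0 passed in the opposite direction to the brightest. For Epha5, the second set 1420557_at had a log2 difference of 0.15 ± 0.20 (adjusted p 0.612) in SMA vehicle cords against wildtype, and for Slit2 the set 1451430_at had 0.08 ± 0.16 (adjusted p 0.774). Efnb1, whose brightest set did not pass, had a dim set, 1418285_at, at 0.53 ± 0.14 (adjusted p 0.0104) in SMA vehicle cords against wildtype and at -0.51 ± 0.14 (adjusted p 0.0185) in SMA ceftriaxone against SMA vehicle cords. Its set 1451591_a_at, brighter than that and above the filter, had the opposite signs and did not pass. It had -0.38 ± 0.16 (adjusted p 0.0916) and 0.26 ± 0.16 (adjusted p 0.276) in the same comparisons when all probe sets were tested. Sema3a 1420417_at and Sema4b 1427586_at, dim sets of members that rose, did not pass in any comparison. The brightest set of Sema4a carries the suffix _x_at, which marks probes that can bind other transcripts, and a second set, 1448110_at, had a log2 difference of 0.33 ± 0.12 (adjusted p 0.034) in SMA vehicle cords against wildtype and of -0.34 ± 0.12 (adjusted p 0.036) in SMA ceftriaxone against SMA vehicle cords among the probe sets kept by the filter. When all probe sets were tested the second did not pass (adjusted p 0.0524). Unc50, which is not a guidance gene, had 0.50 ± 0.14 (adjusted p 0.0157) in SMA ceftriaxone against SMA vehicle cords on its brightest set, while its set 1435812_at had -0.14 ± 0.12 (adjusted p 0.4) there. The call on the brightest set was lost under median centring (adjusted p 0.0507) and without SMA ceftriaxone array 2 (adjusted p 0.0509). Its set 1421982_a_at differed by -0.35 ± 0.08 (adjusted p 0.00351) in SMA vehicle cords against wildtype, where the brightest had -0.09 ± 0.14 (adjusted p 0.629).

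Genes that act downstream of guidance receptors moved in both directions. Of 43 guidance effectors tested, 16 rose and 15 fell in SMA vehicle cords against wildtype, and 14 rose and 14 fell in SMA ceftriaxone against SMA vehicle cords. These are 37.2%, 34.9%, 32.6% and 32.6% of the effectors, beside 24.9%, 22.3%, 18.3% and 17.7% of all probe sets. Their median log2 differences were 0.14 and -0.07, over the 50 on the array. The collapsin response mediators Crmp1, Dpysl4 and Dpysl5, which relay semaphorin signals to the cytoskeleton, and the actin regulator Evl had the smallest p among the rises in SMA vehicle cords. Crmp1 averaged 3869 ± 626 in SMA ceftriaxone cords and 9829 ± 809 in SMA vehicle cords, against 1917 ± 433 in wildtype cords (SD, n = 4 each). The log2 differences were 2.37 ± 0.15 for Crmp1, 1.38 ± 0.09 for Dpysl4, 1.93 ± 0.15 for Dpysl5 and 1.07 ± 0.08 for Evl. These 4 genes fell in SMA ceftriaxone against SMA vehicle cords, with log2 differences of -1.35 ± 0.15 for Crmp1 and -1.68 ± 0.15 for Dpysl5. Against wildtype, SMA ceftriaxone cords were higher in 5 effectors, Crmp1 (1.02 ± 0.15) and Dpysl4 (0.62 ± 0.09) first, with Limk2, Farp1 and Dpysl3, that is 11.6% of the effectors beside 3.29% of all probe sets.

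Chn2, a Rac regulator, the GTPase Rhoa and the kinase Abl1 had the smallest p among the effectors that fell in SMA vehicle cords. Their log2 differences against wildtype were -1.45 ± 0.16 for Chn2, -0.66 ± 0.08 for Rhoa and -0.66 ± 0.10 for Abl1. In SMA ceftriaxone against SMA vehicle cords the rises of smallest p were those of Chn2 (1.40 ± 0.16), Rhoa (0.53 ± 0.08), the small GTPase Rras (1.16 ± 0.17) and Abl1 (0.50 ± 0.10).

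Of 26 other guidance cues and receptors tested, adhesion molecules among them, 15 rose and 2 fell in SMA vehicle cords against wildtype, and 0 rose and 9 fell in SMA ceftriaxone against SMA vehicle cords. These are 57.7%, 7.7%, 0.0% and 34.6% of the list, beside the same 24.9%, 22.3%, 18.3% and 17.7% of all probe sets. Their median log2 differences were 0.38 and -0.24, over the 32 on the array. Ncam1, an adhesion molecule of growing axons, averaged 2511 ± 339 in SMA ceftriaxone cords and 4913 ± 252 in SMA vehicle cords, against 1531 ± 236 in wildtype cords. L1cam, another, averaged 2263 ± 338 in SMA ceftriaxone cords and 4325 ± 205 in SMA vehicle cords, against 1733 ± 368 in wildtype cords. Both were highest in SMA vehicle cords, with log2 differences against wildtype of 1.68 ± 0.11 for Ncam1 and 1.33 ± 0.14 for L1cam. Chl1 (1.52 ± 0.17) and Dscam (1.01 ± 0.14), relatives of these adhesion molecules, rose with them, and the chemokine Cxcl12 (-1.02 ± 0.23) and the protease Adam10 (-0.29 ± 0.10) were the 2 that fell. The falls of smallest p in SMA ceftriaxone against SMA vehicle cords were those of Ncam1, L1cam, Chl1 and the proteoglycan Gpc1, and Ncam1 was the 1 gene of the list that was higher in SMA ceftriaxone cords than in wildtype (0.71 ± 0.11).

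Markers of other cell populations moved between the same groups. All 12 myelin and oligodendrocyte markers fell in SMA vehicle cords against wildtype and all 12 rose in SMA ceftriaxone against SMA vehicle cords, with a summed signal of 106976.4 to 117181.6 in SMA ceftriaxone cords and 26572.5 to 56460.7 in SMA vehicle cords, against 91391.5 to 148291.0 in wildtype cords. Of 10 immature neuron markers tested 9 rose in SMA vehicle cords, and all 10 fell in SMA ceftriaxone against SMA vehicle cords. Their sum over 11 markers was 42059.4 to 51916.4 in SMA ceftriaxone cords and 67864.9 to 81216.7 in SMA vehicle cords, against 42117.2 to 45741.2 in wildtype cords. Within the SMA vehicle group, arrays 3 and 4 had the lowest myelin sums (33974.4 and 26572.5, with 56460.7 and 51887.0 on arrays 1 and 2) and also the lowest signals of 4 of the 5 members that fell, Sema4d, Unc5b, Plxnb3 and Sema5a. Sema3b did not follow this order, with 57.3 on array 2 and 82.2 on array 4. The order was not particular to myelin or to the members that fell. Plxnc1, Ntn1, Plxna3, Efna3, Epha4, Epha5, Epha7, Sema3a and Sema3c rose and had their highest SMA vehicle signals on arrays 3 and 4. Sema4g, Sema4b, Nrp1, Nrp2, Plxna2, Plxnb2, Robo1, Slit2, Ephb3 and Sema5b rose without this order. Arrays 3 and 4 also had the lowest astrocyte, endothelial, microglial and oligodendrocyte precursor sums of the group, and the highest immature neuron and skeletal muscle sums. The part of these cell populations in the guidance gene differences was not tested.

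Of 12 astrocyte markers 3 rose and 6 fell in SMA vehicle cords against wildtype, with sums of 62823.6 to 69909.0 in SMA ceftriaxone cords and 39232.0 to 45743.6 in SMA vehicle cords, against 44128.3 to 68590.6 in wildtype cords. Of 12 endothelial and pericyte markers 6 fell, and of 9 microglial markers tested 6 fell. Endothelial sums were 7059.2 to 9495.0 in SMA ceftriaxone cords and 5009.4 to 6599.5 in SMA vehicle cords, against 7603.2 to 9924.4 in wildtype cords. Oligodendrocyte precursor markers had 2 rises and 3 falls among 8, mature neuron markers 3 rises and 4 falls among 11, meningeal and fibroblast markers 3 rises and 1 fall among 9, and Schwann cell and dorsal root ganglion markers 2 falls among 3 tested (Pmp22 and Sox10, the second also on the precursor list, fell and Prph did not pass). Beside the 24.9% and 22.3% of all probe sets that rose and fell, 25.0% and 50.0% of astrocyte, 25.0% and 37.5% of precursor, 27.3% and 36.4% of mature neuron and 33.3% and 11.1% of meningeal markers did. In SMA ceftriaxone against SMA vehicle cords, 8 of 12 astrocyte, 6 of 12 endothelial and pericyte, 6 of 9 microglial and 6 of 8 oligodendrocyte precursor markers rose and 0 of them fell. In the same comparison mature neuron markers had 3 rises and 3 falls among 11, meningeal and fibroblast markers 0 rises and 3 falls among 9, and Schwann cell and dorsal root ganglion markers 2 rises and 1 fall among 3. Here 18.3% of all probe sets rose and 17.7% fell.

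Skeletal muscle genes, of which 3 of 9 were bright enough to test, all 3 rising in SMA vehicle cords, had sums of 303.1 to 881.1 in SMA ceftriaxone cords and 2510.0 to 6168.6 in SMA vehicle cords, against 675.8 to 1650.3 in wildtype cords. The 9 thymus and T cell genes, all below the filter, summed to 101.0 to 489.7 in SMA ceftriaxone cords and 59.8 to 126.8 in SMA vehicle cords, against 147.4 to 275.8 on 3 wildtype arrays and 32860.6 on wildtype array 2. The part of these populations in the guidance gene differences was not tested.

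**Figure D5:**
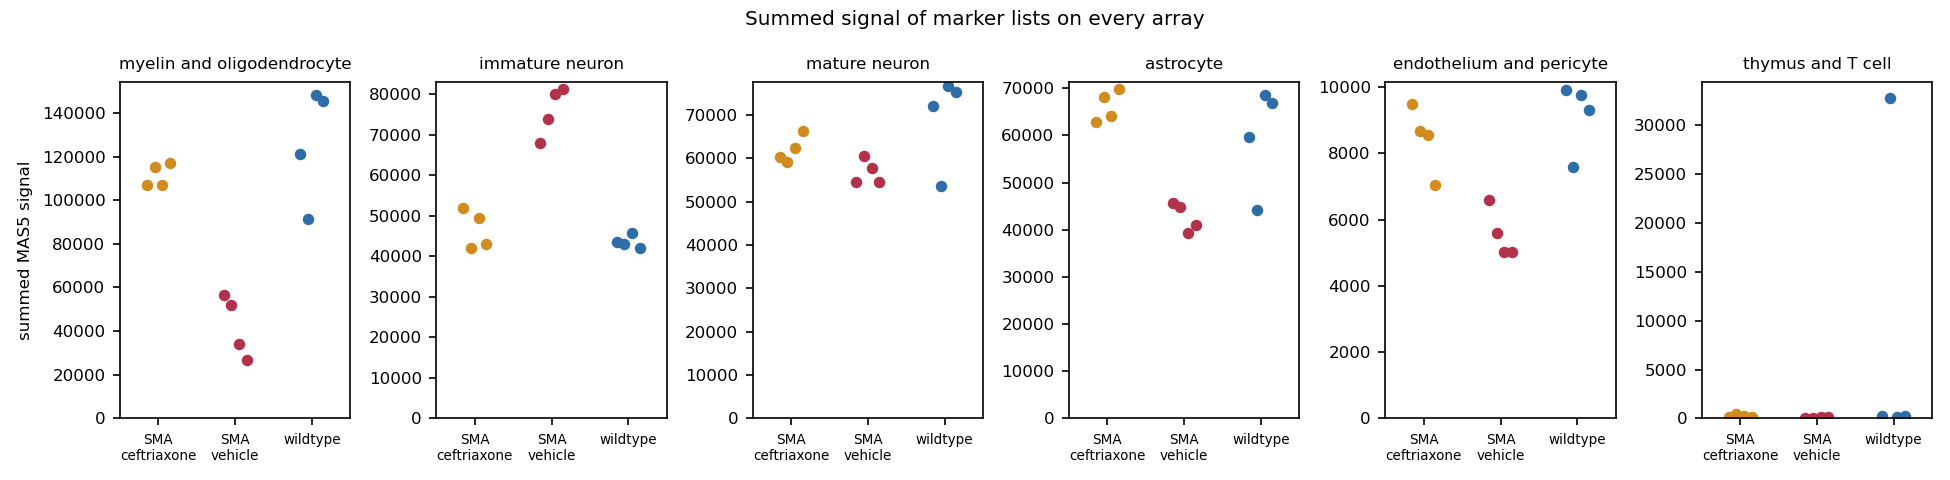
Summed MAS5 signal (linear axis from 0) of 6 marker lists on every array of SMA ceftriaxone, SMA vehicle and wildtype cords. Myelin sums are lowest and immature neuron sums highest in SMA vehicle cords, and the thymus list is high on wildtype array 2 alone.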

How the data were processed

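The authors deposited 1 MAS5 signal intensity per probe set and array, per the submitters' processing notes, on a linear scale with a common 2% trimmed mean on all 12 arrays. The table held 22690 probe sets and 0 columns of other samples, and 64 control probe sets were removed. The platform annotation gave 20393 probe sets 1 gene symbol, 691 several and 1606 none, and only probe sets with 1 symbol were named.

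Groups of 4 arrays came from the labels. Signals were taken as log2(signal + 16), so fold changes of dim genes are understated. Probe sets with a mean above the 40th percentile (13575) were fitted with limma 3.58.1 in R 4.3.3, with a mean per group over all 12 arrays, eBayes with an intensity trend, two-sided moderated tests and Benjamini-Hochberg adjustment over all probe sets kept. Members below the filter were tested in the same fit to all 22626 probe sets. Every adjusted p comes from these fits, and SE is the fit's standard error. Tables were prepared in Python 3.11.15 with pandas 2.3.3 and figures with matplotlib 3.10.9. The fit was tested on simulated data.

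Arrays give no read depth, and 4 per group limit the precision. Per-array values are given for members past the threshold whose groups do not overlap, up to 12 rises and 12 falls per comparison, and for a set list of members. Of the effector list and the list of other cues, the 4 genes of smallest p per direction are named, except 1 effector that is not reported here. The members and all lists were chosen with earlier results of these data known. Alternatives varied the offset, scaling, filter, variance trend, array weights, samples in the fit, replicate block, covariates, probe set choice and left-out arrays. No source says that the replicate numbers of the titles pair the samples, so the fit has no block.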

Additional observations from a re-analysis of the deposited data

Results flagged for a closer look

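In 8 of 120 groups of 4 arrays (40 members in 3 groups each), 1 array lay further from the other 3 than the 95% limit of Dixon's test, which chance exceeds in about 1 in 20 groups. Wildtype array 2 was the distant array in 5 of the 8. On that array Plxnd1 had a signal of 1019.5, where the other wildtype arrays had 186.3 to 239.6, and Ephb6 had 863.4, where the others had 295.6 to 311.2. It was low for Plxnb2, at 379.8 beside 580.4 to 614.7, for Plxna3, at 224.9 beside 289.7 to 297.6, and for Efna2, at 67.8 beside 128.0 to 141.8. SMA vehicle array 4 was high for Epha5, at 819.4 beside 607.8 to 626.8 on the other SMA vehicle arrays, and for Efnb2, at 479.3 beside 371.6 to 386.0. SMA ceftriaxone array 4 was low for Sema4a, at 411.4 beside 535.1 to 545.3 on the other SMA ceftriaxone arrays. The cause of these distances was not tested.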

How the results depend on the processing

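No member that passed in a comparison changed direction there under any alternative run. Of those that did not pass, 6 of 15 in SMA vehicle cords against wildtype, 4 of 19 in SMA ceftriaxone against SMA vehicle cords and 12 of 38 in SMA ceftriaxone cords against wildtype took the other sign under at least 1 alternative without passing there. Plxnd1, for example, had a log2 difference of 0.18 without wildtype array 2 in the last comparison, against -0.38 with it. In SMA vehicle cords against wildtype, 13 of 25 called members passed under every alternative that gave them a value. The same held for 15 of 21 in SMA ceftriaxone against SMA vehicle cords, and for 0 of 2 in SMA ceftriaxone cords against wildtype. A filter at the 60th percentile, which tests fewer members, gave 12 rises in SMA vehicle cords against wildtype, 9 falls in SMA ceftriaxone against SMA vehicle cords and 1 rise in SMA ceftriaxone cords against wildtype, of 21 members tested, where 26.9%, 19.6% and 4.2% of all probe sets passed. Arrays with Xist at or below 1000 (2 SMA vehicle and 3 wildtype) gave 9 rises, where 8.91% of all probe sets rose, and each of the 12 members that did not pass somewhere in this comparison is among those lost there. In SMA ceftriaxone cords against wildtype the number of higher members was 1 with median centring, 7 with array weights, and 0 with only the groups compared, with Xist or the Gapdh ratio as a covariate and among arrays with Xist above 1000 (1 wildtype array, assumed to vary like the other groups). Of all probe sets 1.33%, 8.15%, 0.692%, 0.479%, 1.29% and 0.214% were higher under these settings, in that order. The number lower was 1 with array weights, where 5.3% of all probe sets were lower. The cause of these shifts was not tested. Leaving out 1 array at a time gave 0 to 4 higher and 0 to 2 lower members in that comparison, 19 to 21 rises and 5 to 7 falls in SMA vehicle cords against wildtype, and 4 to 7 rises and 13 to 19 falls in SMA ceftriaxone against SMA vehicle cords. The shares of all probe sets ran over 0.987% to 6.29% and 0.221% to 4.27%, 21.3% to 30.9% and 19% to 27.5%, and 14.3% to 24.6% and 13.1% to 25.6% in these fits. With the replicate block the counts were 20 rises and 5 falls, 6 rises and 16 falls, and 2 and 0 in the 3 comparisons (SMA vehicle against wildtype, SMA ceftriaxone against SMA vehicle, SMA ceftriaxone against wildtype), beside 24% and 21.5%, 17% and 16.7%, and 2.08% and 0.449% of all probe sets. Deviations of same-numbered arrays correlated at -0.143 to 0.133 over 12 pairs, beside -0.272 to 0.204 over 36 other pairs. These ranges gave no sign of pairing by number, but a weak pairing would not be seen with 4 arrays per group. Under quantile normalization and median centring the median log2 difference of the probe sets kept was -0.05 to 0.06 over the 3 comparisons. In the main fit it was -0.011 to 0.015. With 4 arrays per group, differences of small size in dim genes could not be resolved.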
